A study of Saccharomyces cerevisiae with 12 samples.

Results

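The response of slt2 mutant yeast to poacic acid was described from 6 RNA-seq libraries, 3 of untreated slt2 cells and 3 of slt2 cells given the compound, out of 12 libraries in the series. The members were chosen by library label, with earlier results of these data known. All genes that read at least 1 RPKM in at least 3 of these 6 libraries were tested, which left 6140 of the 7126 genes listed. RPKM is the read count of a gene scaled by its length in kilobases and by the depth of the library.

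Slt2 is the last kinase of the cell wall integrity cascade of budding yeast. Sensors in the plasma membrane activate the GTPase Rho1 and Pkc1, a MAP kinase cascade then activates Slt2, and Slt2 switches on wall genes largely through the transcription factor Rlm1. Poacic acid is a plant stilbenoid that binds β-1,3-glucan, the main load-bearing polymer of the wall, so mutants without Slt2 meet this wall stress without the kinase that normally drives the transcriptional answer to it. Other stress routes of yeast include the calcium-activated phosphatase calcineurin with its factor Crz1, and the general stress factors Msn2 and Msn4.

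All cells were of Saccharomyces cerevisiae strain BY4741, a haploid MATa laboratory strain without working HIS3, LEU2, MET17 and URA3 genes, and the mutant lacked SLT2 in addition. The cultures started at an OD of 0.2 after dilution, and the treated ones received 100 µg/ml poacic acid at an OD of 0.5 for 1 h, while the growth text of the untreated cultures gives 2 h. The mutant and the wild type (3 libraries untreated and 3 treated) were prepared alike, with removal of rRNA and a kit that keeps the strand. The labels call the 3 samples of a group biological samples, and each was used without and with the drug.

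The libraries matched their strain labels. SLT2 read 0 RPKM in the 3 untreated mutant libraries and 0, 0.1985 and 0.1446 RPKM in treated replicates 1, 2 and 3, under the value of 3 reads, against 42.09 to 49.99 RPKM in untreated and 194 to 236 RPKM in treated wild type. LEU2 and MET17 read 0 in all 6 mutant libraries, URA3 read 0 in 5 of them and 0.647 RPKM in treated replicate 1, and HIS3, which is only partly deleted in this strain, read 50.53 to 75.02 RPKM. The a-cell receptor gene STE2 averaged 171.6 RPKM in untreated and 122.4 RPKM in treated mutant libraries, while the α-cell receptor gene STE3 did not pass the filter. SAG1, the α-agglutinin gene and the 1 α-cell marker tested, read 6.79 to 9.91 RPKM in mutant and 8.15 to 11.85 RPKM in wild-type libraries. The mutant libraries held 3463000 to 7982000 reads, as recovered from the steps of the values, so that 3 reads in a gene of 1 kb were worth 0.376 to 0.866 RPKM. Ribosomal RNA took 0.873 to 1.22% of the summed RPKM in the mutant libraries. In wild type it took 0.0164 to 0.133% in untreated and 0.0192 to 0.954% in treated libraries. Replicates of a group correlated at 0.970 to 0.987 across genes. Both libraries numbered 3 stood apart from the others of their group for the genes that rose, as given below.

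With poacic acid 528 genes changed in slt2 cells, 8.6% of those tested. Of these, 330 rose (5.37%) and 198 fell (3.22%). The test was limma on log2(RPKM + 1), with Benjamini-Hochberg adjustment over the 6140 genes and a threshold of 0.05. It took the libraries as unpaired, and is behind every adjusted p below where no block for replicate number or left-out library is named. With such a block, by the pairing in the design text, 716 genes were called. All fold changes are on the log2(RPKM + 1) scale, which understates those of genes with low values. At least 2-fold rises numbered 154 (2.51%) and at least 2-fold falls 24 (0.391%). The 330 genes that rose went from a median of 18.6 RPKM to 41.9 RPKM, and the 198 that fell from 51.5 RPKM to 32.5 RPKM. Among those that rose at least 2-fold the medians were 13.4 and 38.6 RPKM. The median change of all tested genes was 0.03 on the log2 scale.

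Single libraries moved these counts. The 528 calls became 348 without untreated replicate 1, 242 without untreated replicate 3, 280 without treated replicate 1 and 232 without treated replicate 2. Among the 154 genes with at least a 2-fold rise, 111 remained called whichever mutant library was left out, as did 20 of the 24 with at least a 2-fold fall. Of the 154, treated replicate 3 was the lowest of the treated libraries in 129, and untreated replicate 3 the lowest of the untreated in 125. Over all 6140 genes those counts were 2614 and 2546. The part of this in the results was not tested beyond the counts without these libraries: with both libraries numbered 3 left out, a setting chosen after seeing the data, 365 genes were called.

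**Figure D1:**
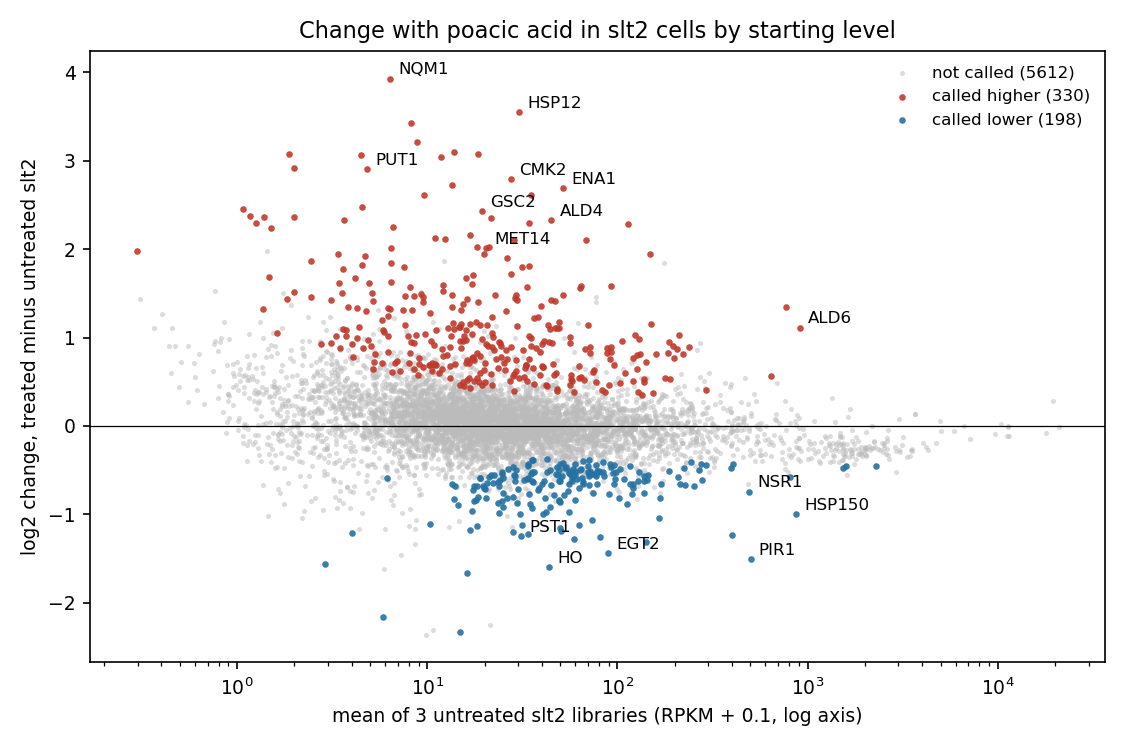
Change with poacic acid in slt2 cells (vertical axis, log2 of treated over untreated) against the mean of the 3 untreated slt2 libraries (horizontal log axis, RPKM + 0.1) for the 6140 tested genes. The 330 genes called higher reach a log2 change of 3.93 (NQM1), and the 198 called lower spread less far, to -2.34 (MFA2, whose call depended on single libraries as described with the mating genes).

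Most targets of the calcineurin branch rose. Of 12 targets of Crz1, the factor that calcineurin dephosphorylates, 11 were called higher, with a median log2 change of 1.90 against 0.03 for all genes. CMK2 (chrXV:294777-296120, minus strand), which encodes a calmodulin-dependent kinase, read 29.27, 34.92 and 17.89 RPKM in untreated replicates 1 to 3 and 198.6, 188.4 and 179.2 RPKM in treated replicates 1 to 3. The groups did not overlap, and the untreated library numbered 3 was the lowest. The log2 change was 2.79 (SE 0.18, adjusted p = 1.83e-06).

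ENA1, which encodes a sodium pump, read 60.42, 60.87 and 34.1 RPKM without and 366.1, 395.7 and 246.9 RPKM with the compound, a log2 change of 2.69 (adjusted p = 6.73e-06). It lies in a tandem array of near-identical copies, so its own share of these reads is uncertain. GSC2 (chrVII:548264-553951, plus strand), also known as FKS2 and encoding the stress-induced catalytic subunit of β-1,3-glucan synthase, went from 19.65, 20.26 and 18.03 RPKM to 98.67, 119.8 and 108.3 RPKM. Its groups were each tight and far apart, and the log2 change was 2.43 (SE 0.19, adjusted p = 5.35e-06). The calcineurin regulators RCN1 and RCN2 rose by 2.16 and 1.95 on the log2 scale (adjusted p = 6.84e-06 and 2.29e-05), and YPS1, which encodes a wall-processing aspartyl protease, rose by 2.10 (adjusted p = 6.84e-06).

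PMC1 (chrVII:485921-489442, plus strand), which encodes the vacuolar calcium pump, read 31.87, 32.12 and 21.95 RPKM in untreated and 82.9, 87.57 and 67.37 RPKM in treated libraries, with a log2 change of 1.45 (adjusted p = 0.000102). CRZ1 itself rose by 0.89 (adjusted p = 0.004). PHO89, encoding a phosphate transporter, was the member not called: it read 233.9, 241.5 and 52.86 RPKM untreated and 731.6, 858.2 and 226.3 RPKM treated. There both libraries numbered 3 were low and the groups overlapped (adjusted p = 0.117, or 0.00044 with a block for replicate number). In the list of calcium and calcineurin signalling genes, which shares CMK2, RCN1, RCN2, PMC1 and CRZ1 with the targets, 7 of 16 were called higher (median 0.25), and 5 to 7 with any mutant library left out. The genes for the calcineurin subunits CNA1, CMP2 and CNB1 and for calmodulin, CMD1, were not called (log2 changes of -0.08, 0.28, 0.21 and 0.14), nor were those for the calcium channel subunits MID1 and CCH1 (0.14 and -0.06). The count of called Crz1 targets stayed between 10 and 12 with any mutant library left out, and was 11 without both libraries numbered 3.

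Matches to the binding sequence of Crz1, the calcineurin-dependent response element (CDRE, here GNGGCTG or GNGGCNCA on either strand), were found within 500 bp upstream of the start codon in 6 of the 12 targets, and in 17.2% of the 6055 promoters of tested genes that could be read from the R64 genome. Among the 154 genes with at least a 2-fold rise the share was 44.8%. The targets CMK2, ENA1, GSC2, RCN1 and YPS1 held no match. The stretches of PMC1 and of PUN1, a called gene of another list given below, are shown for the matches they hold, written on the strand of the gene with the matches in capitals. All 3 matches lie on the opposite strand to the motif as spelled above and appear as its reverse complement.
PMC1 (chrVII:485491-485521, plus strand, -430 to -400 from the start codon): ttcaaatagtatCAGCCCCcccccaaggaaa
PUN1 (chrXII:954545-954644, minus strand, -500 to -401 from the start codon): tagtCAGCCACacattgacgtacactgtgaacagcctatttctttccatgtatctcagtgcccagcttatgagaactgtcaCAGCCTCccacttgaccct

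Osmostress genes, a list of genes induced through the Hog1 kinase, also rose: 13 of 18 were called higher, with a median log2 change of 1.69, and between 9 and 15 were called with any mutant library left out. NQM1 (chrVII:580435-581436, minus strand), which encodes a transaldolase paralog, had the largest change of the genes called. It read 8.377, 7.915 and 2.482 RPKM in untreated and 114.0, 104.3 and 83.97 RPKM in treated libraries. The groups lay far apart, with a log2 change of 3.93 (SE 0.31, adjusted p = 6.84e-06). RTC3 went from 18.27, 19.27 and 17.89 RPKM to 206.6, 191.7 and 108.9 RPKM (log2 change 3.07, adjusted p = 3.97e-05). GPD1, which encodes the glycerol-3-phosphate dehydrogenase that feeds glycerol synthesis, went from 127.7, 134.6 and 77.71 RPKM to 598.1, 603.1 and 433.9 RPKM (log2 change 2.28, adjusted p = 1.81e-05), though it overlaps the dubious gene YDL023C and the strand of counting is not given.

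HSP12 (chrVI:107256-107585, plus strand), encoding a small membrane-protecting stress protein, read 45.93, 36.79 and 7.536 RPKM without and 402.6, 352.7 and 170.8 RPKM with poacic acid. Replicates numbered 3 were low in both groups. Its log2 change of 3.55 (adjusted p = 0.0117) lost the call without treated replicate 1 (adjusted p = 0.0575) and without treated replicate 2 (adjusted p = 0.0532). CTT1, the cytosolic catalase gene, rose by 1.83 (adjusted p = 8.41e-05) from 4.42 ± 1.26 to 18.1 ± 3.41 RPKM (SD, n = 3). STL1, which encodes a glycerol symporter and is a standard readout of Hog1, read 5.934, 6.626 and 3.999 RPKM untreated and 8.059, 8.782 and 10.83 RPKM treated and was not called (log2 change 0.66, adjusted p = 0.0755), although its groups did not overlap.

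Related stress groups depended more on single libraries. The list of small stress proteins shares HSP12, HOR7, GRE1 and SIP18 with the osmostress genes. Of its 15 tested members 9 were called higher (median 1.17), among them TMA10 (3.43, adjusted p = 0.00785) and SPG4 (3.08, adjusted p = 0.00114). That count was 4 without treated replicate 1, 4 without treated replicate 2 and 5 without untreated replicate 3. Of 10 trehalose genes 6 were called higher (median 0.67), which became 3, 2 and 2 without the same libraries. TPS2, encoding trehalose-6-phosphate phosphatase, was called in each of these fits, with a rise from 33.45 to 102.4 RPKM (log2 change 1.57, adjusted p = 0.000515). Among 23 cytosolic chaperones the share called higher was 4.35%, near the 5.37% of all genes, and the median of the list was 0.01. The 1 called was HSP104, for a disaggregase (3 genes with a block for replicate number). Its log2 change of 0.82 (adjusted p = 0.0151) lost the call without untreated replicate 3 (adjusted p = 0.0838), treated replicate 1 (adjusted p = 0.0817) or treated replicate 2 (adjusted p = 0.0793). Of 24 Hog1 signalling genes 2 were called higher (8.33%, against 5.37% of all genes), with a median of 0.15. That count was 1 to 2 with any mutant library left out and 3 with a block for replicate number. SMP1, a Hog1-dependent transcription factor gene, was among the 2 and rose from 3.00 to 9.75 RPKM (1.42, adjusted p = 0.000193). It averaged 5.25 and 10.3 RPKM in untreated and treated wild type, and the difference between strains was not called (0.56, adjusted p = 0.389).

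The stress response element (STRE, AGGGG on either strand), which Msn2 and Msn4 bind, was found in 64.3% of the promoters of the 154 genes with at least a 2-fold rise and in 34.2% of all promoters read. It was present in 77.8% of the osmostress promoters, and 66.7% of these held more than 1 match. The stretches below show the clustered matches of the genes with the largest log2 changes, in capitals, on the strand of each gene.
NQM1 (chrVII:581585-581624, minus strand, -188 to -149 from the start codon): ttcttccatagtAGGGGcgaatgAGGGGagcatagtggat
HSP12 (chrVI:106809-106895, plus strand, -447 to -361 from the start codon): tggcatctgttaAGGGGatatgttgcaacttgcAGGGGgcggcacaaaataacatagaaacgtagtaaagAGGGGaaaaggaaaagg

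Most sulfate assimilation genes rose in the mutant, and fewer genes of the other sulfur lists. Of 9 sulfate assimilation genes 7 were called higher, with a median log2 change of 0.82 and a range of 5 to 8 calls with any mutant library left out. MET14 (chrXI:438777-439385, minus strand), encoding adenylylsulfate kinase, read 17.69, 24.72 and 18.72 RPKM in untreated and 93.07, 82.04 and 78.06 RPKM in treated libraries, without overlap (log2 change 2.01, SE 0.17, adjusted p = 6.84e-06). MET3 (chrX:456239-457774, plus strand), encoding ATP sulfurylase, read 16.31, 18.12 and 12.95 RPKM before and 53.07, 56.78 and 47.11 RPKM after (1.68, adjusted p = 8.3e-06). MET10, which encodes a sulfite reductase subunit, rose from 17.2 ± 0.612 to 36.8 ± 6.25 RPKM (SD, n = 3; limma log2 change 1.04, adjusted p = 0.000509).

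Beyond sulfide, 6 of 18 genes of methionine and cysteine synthesis were called higher, with a median of 0.23. STR3, which encodes cystathionine β-lyase, went from 3.136, 3.821 and 3.706 RPKM to 24.64, 22.93 and 18.36 RPKM (2.33, adjusted p = 9.32e-06). MHT1, a gene of S-methylmethionine use, rose by 1.32 (adjusted p = 4.43e-05) and MET2 by 1.17 (adjusted p = 9.19e-05, with a gene overlapping it). MET6, encoding methionine synthase, rose by 0.91 (adjusted p = 0.000951). The cysteine genes CYS3 and CYS4 were not called, at 0.08 and -0.10. Of 13 sulfur regulators and uptake genes 3 were called higher (median 0.35), or 5 without treated replicate 3 and 5 with a block for replicate number. Among them the methionine permease gene MUP1 rose by 0.89 (adjusted p = 0.000201) and MET28, a co-factor gene of the regulator Met4, by 1.80 (adjusted p = 0.00264, with a gene overlapping it), while MET4 itself was not called (-0.12). MET17, the sulfide-using step of this route, reads 0 in both groups because the strain lacks it.

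The binding sequence of the sulfur regulator Cbf1 (CACGTG, the same on both strands) was found in 8 of the 9 sulfate assimilation promoters, 88.9%, and in 6.18% of all promoters read. The stretches of MET3 and MET10 hold 2 matches each, in capitals.
MET3 (chrX:455850-455896, plus strand, -389 to -343 from the start codon): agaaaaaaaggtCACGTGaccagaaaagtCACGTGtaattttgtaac
MET10 (chrVI:213051-213098, plus strand, -261 to -214 from the start codon): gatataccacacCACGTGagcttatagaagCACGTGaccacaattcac

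Genes for the use of poor nitrogen sources rose as well, 10 of 24, with a median log2 change of 0.65 and 7 to 10 calls with any mutant library left out. PUT1 (chrXII:425186-426616, plus strand), which encodes proline dehydrogenase, read 5.866, 5.768 and 2.607 RPKM untreated and 43.06, 52.07 and 29.1 RPKM treated. All treated values lay above all untreated ones, with a log2 change of 2.91 (SE 0.27, adjusted p = 1.8e-05). The proline permease gene PUT4 rose by 1.92 (adjusted p = 4.6e-05), the general amino acid permease gene GAP1 by 1.61 (adjusted p = 0.00101), the arginase gene CAR1 by 1.15 (adjusted p = 2.29e-05) and the urea amidolyase gene DUR1,2 by 1.00 (adjusted p = 0.000361). The allantoin genes DAL1, DAL2, DAL3, DAL4, DAL5 and DAL7 were not called, with log2 changes between 0.11 (DAL4) and 0.73 (DAL3). The highest untreated mean among them was 7.91 RPKM (DAL7).

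In the Ehrlich pathway, which turns amino acids into fusel alcohols, 4 of 18 genes were called higher. ARO10 (chrIV:1234218-1236125, plus strand), encoding phenylpyruvate decarboxylase, read 12.87, 10.09 and 17.27 RPKM before and 90.89, 105.5 and 82.02 RPKM after (2.73, SE 0.22, adjusted p = 6.84e-06). The transaminase gene ARO9 rose by 1.90 (adjusted p = 5.17e-05, with a gene overlapping it). The main alcohol dehydrogenase and pyruvate decarboxylase genes ADH1 and PDC1 averaged 11250 and 11360 RPKM in untreated libraries and had log2 changes of -0.01 and 0.00.

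Of 9 aldehyde dehydrogenase genes 6 were called higher (median 0.58), a count that was 3 when treated replicate 1 or 2, or untreated replicate 2 or 3, was left out. The 3 genes called in all of these fits were ALD4, ALD6 and ALD3. ALD4 (chrXV:1039840-1041399, plus strand), for the mitochondrial enzyme, went from 42.08, 39.32 and 52.74 RPKM to 258.1, 252.1 and 180.7 RPKM (2.33, adjusted p = 5.35e-06). ALD6, for the abundant cytosolic enzyme, went from 845.8, 856.2 and 1016 RPKM to 2221, 2121 and 1582 RPKM (1.11, adjusted p = 0.000207). For both, treated replicate 3 was the lowest of the treated libraries and untreated replicate 3 the highest of the untreated.

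Some eisosome and autophagy genes rose. PUN1, a Sur7-family membrane protein gene, read 38.91, 39.24 and 27.21 RPKM untreated and 220.6, 255.6 and 183.5 RPKM treated (2.62, SE 0.19, adjusted p = 3.36e-06), and its relative FMP45 rose by 3.10 (adjusted p = 0.000255). Of 15 eisosome and Sur7-family genes 5 were called higher, or 3 without treated replicate 1, treated replicate 2 or untreated replicate 3. The core eisosome genes PIL1 and LSP1 were not among them. Of 25 autophagy genes 4 were called higher (16.0%, against 5.37% of all genes) with a median of 0.39. ATG8, encoding the ubiquitin-like protein of autophagosomes, went from 7.786, 9.602 and 5.269 RPKM to 25.34, 26.92 and 16.04 RPKM (1.48, adjusted p = 0.0038), and ATG5 and ATG19 rose by 1.12 and 0.95 (adjusted p = 0.000642 and 0.00193).

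**Figure D2:**
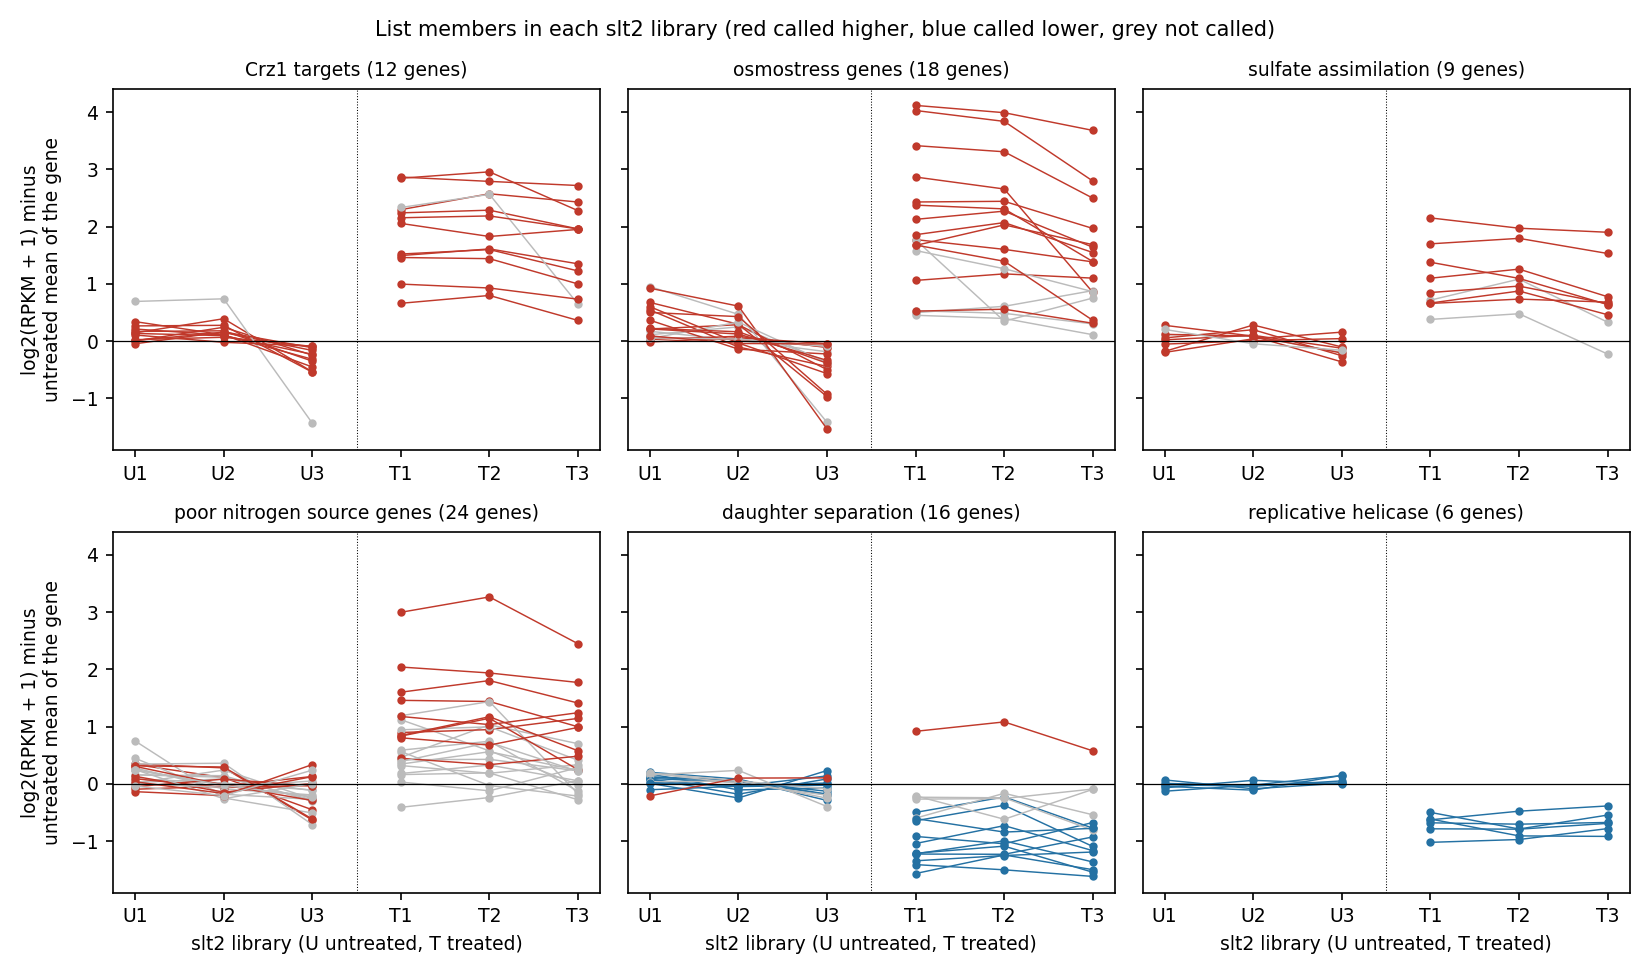
Every tested member of 6 gene lists in each slt2 library, as log2(RPKM + 1) minus the mean of the 3 untreated libraries for that gene. U1 to U3 are untreated and T1 to T3 treated replicates, and lines join the libraries of a group only to follow a gene. Called Crz1, osmostress and sulfate assimilation genes lie above the untreated libraries in all 3 treated ones, while the 6 replicative helicase genes lie below.

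Wall genes moved in both directions. Of 20 targets of Rlm1, 7 were called higher and 4 lower, with a median of 0.36. With both libraries numbered 3 left out, a setting added after seeing the data, 4 were called higher and 4 lower. Besides GSC2, which is also a Crz1 target, the called rises included CWP1, for a wall mannoprotein, from 11.14, 10.34 and 30.51 RPKM to 44.78, 44.92 and 70.7 RPKM (1.71, adjusted p = 0.0118), and YLR194C, also known as NCW2, from 63.3 ± 13.6 to 187 ± 13.8 RPKM (SD, n = 3; limma log2 change 1.57, adjusted p = 0.00832).

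PIR1 (chrXI:141794-142819, minus strand), which encodes a wall protein linked to β-1,3-glucan, fell from 524.2, 484.6 and 492.6 RPKM to 187.8, 176.2 and 162.6 RPKM (log2 change -1.51, SE 0.15, adjusted p = 2.1e-05). Its groups were tight and did not overlap. HSP150, a second gene of the PIR family, fell from 915.1, 917.1 and 761.4 RPKM to 489.2, 442 and 370.9 RPKM (-0.996, adjusted p = 0.00354). PST1, for a GPI-anchored wall protein that is a classical marker of wall stress, fell from 36.6, 32.98 and 23.91 RPKM to 15.87, 15.36 and 7.563 RPKM (-1.25, adjusted p = 0.00447). KDX1, a pseudokinase paralog gene of SLT2, read 2.502, 1.989 and 1.592 RPKM before and 1.198, 2.44 and 2.1 RPKM after (-0.07, 95% interval -0.55 to 0.41).

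The kinase genes upstream of Slt2 were not called: PKC1 had a log2 change of 0.06 (95% interval -0.21 to 0.33), BCK1 of -0.15 (-0.40 to 0.11) and MKK1 of 0.00 (-0.26 to 0.27), and RLM1 had 0.06 (-0.28 to 0.39). Among the sensors WSC2 rose by 0.82 (adjusted p = 0.00271), and WSC1, listed as SLG1, was not called (0.06). The constitutive glucan synthase gene FKS1 went from 208 ± 21.0 to 281 ± 26.9 RPKM (SD, n = 3) and was not called (0.44, limma adjusted p = 0.0871, or 0.0167 with a block for replicate number). KRE6, needed for β-1,6-glucan, rose by 0.69 (adjusted p = 0.00785). Of 35 wall protein genes 5 were called higher and 3 lower (6 and 5 with a block for replicate number), with a median of 0.02. Beside YPS1, CWP1 and YLR194C these rises were SPI1 (1.34, adjusted p = 0.00301) and YPS3 (1.10, adjusted p = 0.00741).

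The Rlm1 binding motif was found in 6 of the 20 Rlm1 target promoters, 30.0%, and in 1.7% of all promoters read. The stretches of PST1, which fell, and PIR3, which averaged 2.66 RPKM untreated and 2.56 RPKM treated, are shown because both genes differ from the wild type as described below, with the match in capitals.
PST1 (chrIV:563210-563243, plus strand, -317 to -284 from the start codon): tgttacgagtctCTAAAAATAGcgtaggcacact
PIR3 (chrXI:144109-144142, plus strand, -292 to -259 from the start codon): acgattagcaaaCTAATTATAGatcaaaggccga

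Genes that separate the daughter cell from its mother fell. Of 16 such genes, mostly expressed at the end of mitosis and in early G1, 11 were called lower, 68.8% against 3.22% of all genes, with a median log2 change of -0.81. Between 8 and 11 were called with any mutant library left out. PIR1, also counted among the Rlm1 targets and the wall proteins, is among the 11 called. EGT2 (chrXIV:24048-27173, plus strand), whose product acts in septum breakdown, read 95.94, 92.22 and 78.16 RPKM untreated and 29.24, 36.86 and 30.68 RPKM treated. No value of the groups overlapped, and the log2 change was -1.43 (SE 0.13, adjusted p = 1.3e-05). The glucanase genes DSE4 and SCW11 fell by 1.28 and 1.19 (adjusted p = 0.000509 and 6.12e-05). AMN1, for an inhibitor of mitotic exit, fell by 1.26 (adjusted p = 0.00076), and ASH1, for the daughter-specific repressor of HO, fell by 0.88 (adjusted p = 0.00256). CHS1, for the repair chitin synthase of the septum, went the other way and rose by 0.86 (adjusted p = 0.00293).

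HO, for the mating-type switching endonuclease, fell from 38.56, 40.53 and 51.54 RPKM to 12.85, 14.27 and 13.74 RPKM (-1.60, SE 0.18, adjusted p = 8.15e-05). PCL9 (chrIV:138291-139205, plus strand), an early G1 cyclin gene, fell from 18.21, 18.4 and 13.59 RPKM to 6.82, 5.997 and 7.586 RPKM (-1.18, adjusted p = 0.000999). FAR1, for the inhibitor of G1 cyclins in mating, fell by 1.15 (adjusted p = 0.000945). Of 30 G1/S genes 7 were called lower (median -0.30), or 3 without treated replicate 1, untreated replicate 1 or untreated replicate 3 and 4 without treated replicate 2. MFA2, for the a-factor pheromone, read 26.77, 6.917 and 10.63 RPKM untreated and 3.333, 0 and 3.596 RPKM treated (-2.34, adjusted p = 0.0265). That call was lost without treated replicate 2 (adjusted p = 0.0627), untreated replicate 1 (adjusted p = 0.0835) or untreated replicate 3 (adjusted p = 0.0737). Other cell-cycle lists did not fall as a whole. Of 11 histone genes 2 were called higher and 0 lower, with a median of 0.365. Between 1 and 3 histone genes were called higher with any mutant library left out, and 5 with a block for replicate number. Of 20 mitotic genes 3 were called lower and 0 higher, with a median of -0.03. Between 1 and 3 mitotic genes were called lower with any mutant library left out. In bulk cultures fewer cells in a phase and less RNA per cell cannot be told apart.

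All 6 subunit genes of the replicative helicase, MCM2 to MCM7, were called lower, with a median of -0.72. MCM7 went from 34.95, 34.31 and 36.66 RPKM to 16.9, 17.52 and 20.14 RPKM (-0.92, SE 0.12, adjusted p = 0.00034), and MCM2 and MCM3 fell by 0.81 and 0.75 (adjusted p = 0.000872 and 0.000404). All 6 changes lay between -0.92 and -0.50. Between 4 and 6 were called with any mutant library left out, and 3 without both libraries numbered 3.

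Ribosome assembly genes fell by small amounts. Of 79 nucleolar and pre-ribosome factors 35 were called lower, with a median log2 change of -0.51 and a range of -0.88 to -0.17. The treated libraries lay below the untreated in 69 of them, where 12.9% of all genes did. The count of calls was 14 without treated replicate 1, 6 without treated replicate 2, 14 without untreated replicate 1, 18 without untreated replicate 2 and 8 without untreated replicate 3. NSR1, for a nucleolin-like protein, fell from 491 ± 33.5 to 293 ± 22.0 RPKM (SD, n = 3; limma log2 change -0.74, adjusted p = 0.00124, with a dubious gene overlapping it). TSR1 (chrIV:341619-343985, plus strand), a maturation factor of the small subunit, went from 69.44, 63.59 and 78.54 RPKM to 43, 39.53 and 49.14 RPKM (-0.67, adjusted p = 0.00447), and UTP5 (chrIV:1267471-1269402, plus strand), of the small subunit processome, from 67.96, 66.02 and 63.61 RPKM to 41.18, 37.07 and 46.27 RPKM (-0.66, adjusted p = 0.00631). The 138 ribosomal protein genes had a median of -0.28. Of these, 48 had an unadjusted p under 0.05 and 3 were called (28 with a block for replicate number, 11 without treated replicate 3 and 0 without treated replicate 2, untreated replicate 1 or untreated replicate 3), and reads of their near-identical pairs may be shared.

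Other genes changed as much. DIA1 read 14.62, 14.57 and 5.74 RPKM untreated and 84.1, 90.27 and 115.9 RPKM treated (3.04, adjusted p = 1.84e-05, with a gene overlapping it), so treated replicate 3 was here the highest. YBR056W-A, for the small CYSTM membrane protein Mnc1, rose by 3.21 (adjusted p = 0.00139). It overlaps another gene and held 3 reads in its lowest mutant library. PHM7 rose by 2.92 and the hexose transporter gene HXT5 by 1.84 (adjusted p = 0.00631). Among the falls, PHO3, for a constitutive acid phosphatase, went from 152.1, 136.8 and 133.6 RPKM to 58.52, 50.19 and 59.63 RPKM (-1.31, adjusted p = 0.000801). MRH1, for a plasma membrane protein, fell by 1.24 (adjusted p = 0.00117) and SPO12, for a regulator of mitotic exit, by 1.22 (adjusted p = 0.00124).

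The PAC element (GATGAG, bound by Dot6 and Tod6) was found on either strand in 92.4% of the ribosome assembly promoters, 58.6% of the promoters of all 198 genes called lower and 27.7% of all promoters read. The RRPE element (AAAATTTT, bound by Stb3, the same on both strands) was found in 78.5%, 42.9% and 12.4% of them. The stretches of TSR1 and UTP5 hold both elements, in capitals. In TSR1 both PAC matches are on the opposite strand, and they share a base.
TSR1 (chrIV:341477-341527, plus strand, -142 to -92 from the start codon): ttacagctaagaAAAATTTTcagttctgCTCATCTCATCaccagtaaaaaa
UTP5 (chrIV:1267256-1267357, plus strand, -215 to -114 from the start codon): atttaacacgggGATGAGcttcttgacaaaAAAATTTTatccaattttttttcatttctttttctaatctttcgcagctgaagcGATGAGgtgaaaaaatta

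**Figure D3:**
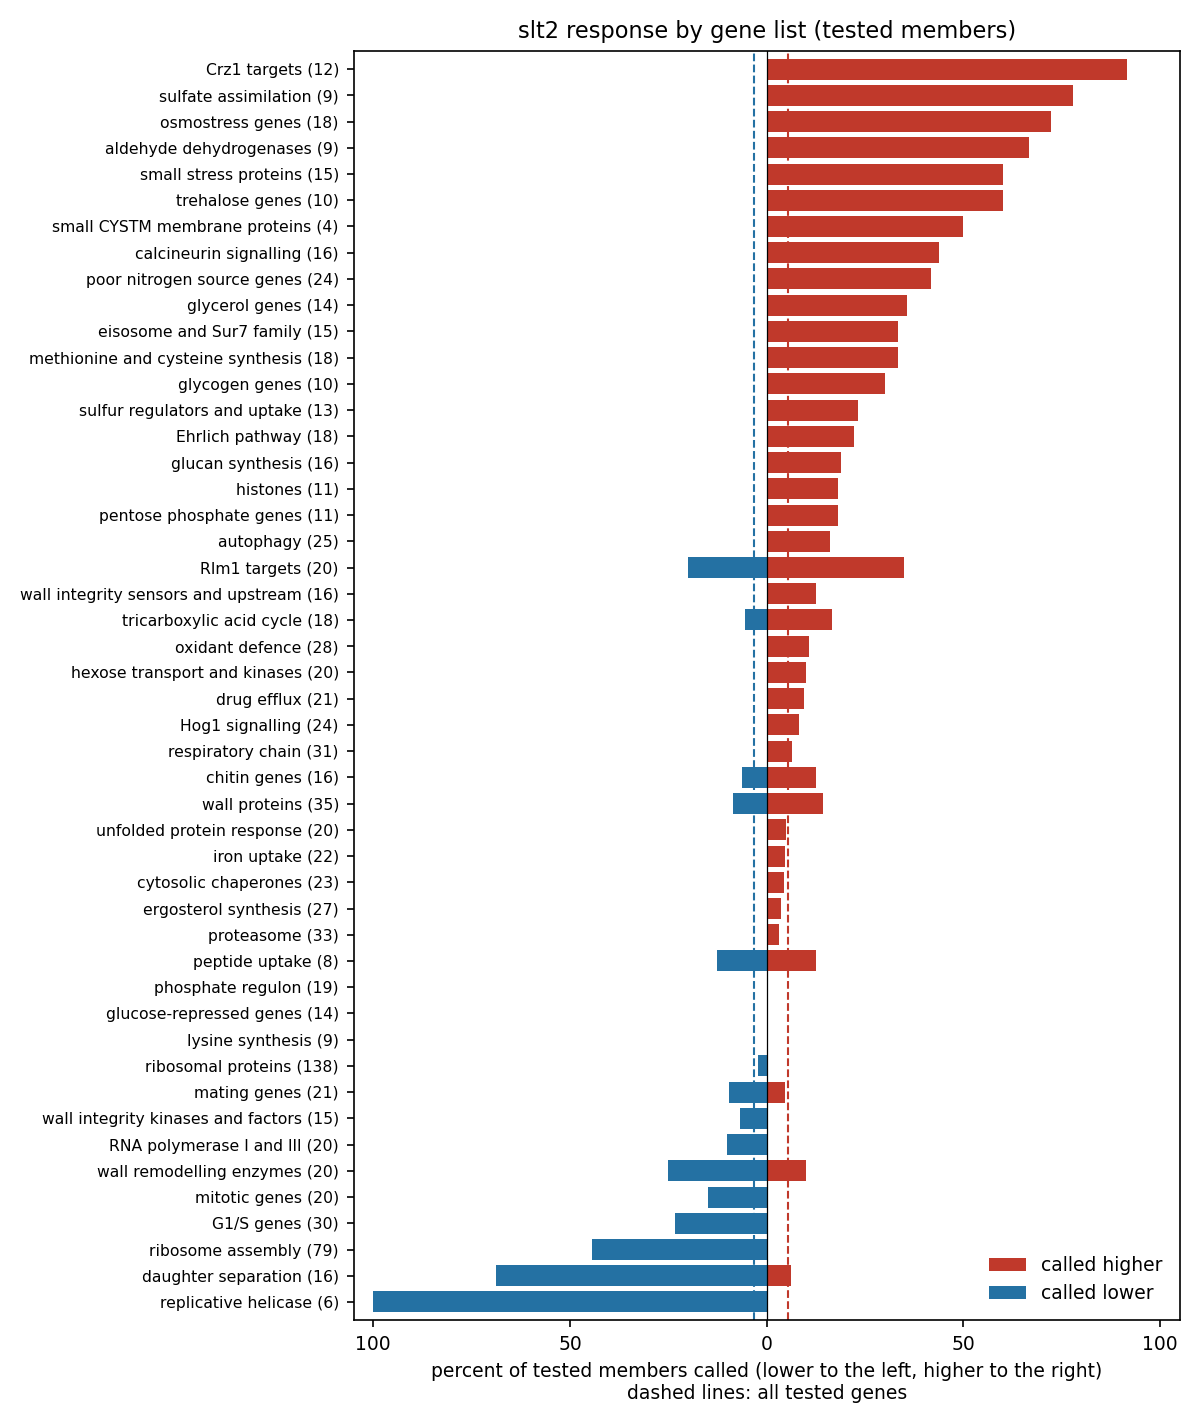
Share of tested members of each gene list called higher (red, to the right) or lower (blue, to the left) in slt2 cells with poacic acid, with the number tested in brackets. Dashed lines mark the shares of all tested genes, 5.37% higher and 3.22% lower. Crz1 targets reach 91.7% higher, and the replicative helicase 100% lower.

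In several lists the share called was near or under that of all tested genes, 5.37% higher and 3.22% lower. Lists this short would hold few calls at those shares as well. In the lysine synthesis, phosphate regulon and glucose-repressed lists 0 of 9, 19 and 14 genes were called by limma, and 2 of each had an unadjusted p under 0.05. With a block for replicate number, 1 phosphate gene was called higher and 2 lower. Of 20 unfolded protein response genes HRD1 was called higher (5.0%), and of 33 proteasome genes RPN2 (3.03%). Of 27 ergosterol genes the regulator UPC2 was called higher (3.7%, log2 change 0.63, adjusted p = 0.00863). HRD1 (adjusted p = 0.0275) lost the call in 4 of the 6 fits with a mutant library left out, with adjusted p = 0.0959 and 0.14 without treated replicates 1 and 2 and 0.102 and 0.108 without untreated replicates 2 and 3. RPN2 (adjusted p = 0.0429) kept it in the fit without treated replicate 3 alone, with adjusted p between 0.106 (without untreated replicate 2) and 0.181 (without treated replicate 2) in the others, and 0.0507 with a block for replicate number.

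**Figure D4:**
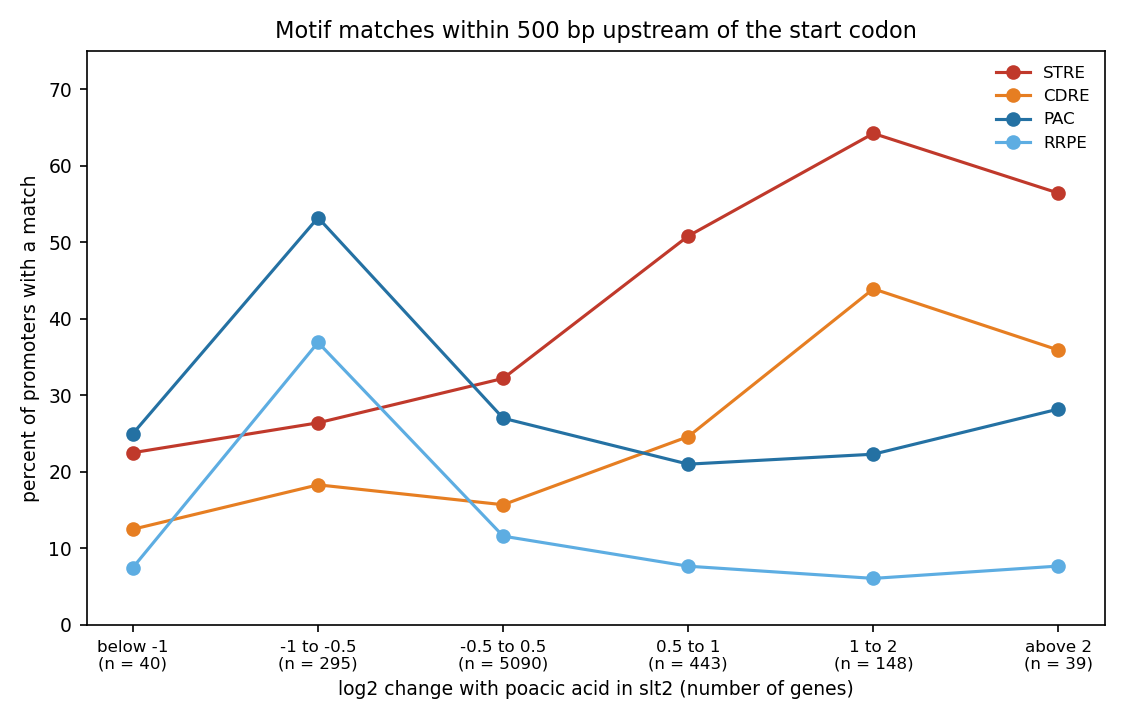
Percent of promoters with at least 1 match within 500 bp upstream of the start codon (vertical axis) for genes binned by their log2 change in slt2 cells (horizontal axis, number of genes below each bin). STRE and CDRE peak at 64.2% and 43.9% in the bin from 1 to 2, and PAC and RRPE at 53.2% and 36.9% in the bin from -1 to -0.5. The STRE and the CDRE can share letters, so a stretch may count for both.

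The response of the mutant differed from that of the wild type in 105 genes (1.71% of those tested): 45 rose more or fell less in the mutant (0.733%), and 60 rose less or fell more (0.977%). These tests are of the difference between the log2 changes of the strains, in the same fit. Among the 154 genes with at least a 2-fold rise in the mutant, 30 differed. Leaving out single libraries took the 105 to 60 (treated mutant replicate 2), 68 (untreated mutant replicate 1), 68 (untreated wild-type replicate 1) and 161 (treated wild-type replicate 2), and a block for replicate number took it to 177.

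Of the genes that rose more in the mutant, CMK2 read 17.73, 18.79 and 20.96 RPKM in untreated and 40.63, 43.33 and 43.93 RPKM in treated wild type, so that both strains rose and the mutant by 1.68 more on the log2 scale (adjusted p = 0.00337). The values of treated mutant libraries, 179.2 to 198.6 RPKM, lay above all others. PUT1 read 3.318, 3.754 and 2.68 RPKM in untreated and 2.946, 4.176 and 2.829 RPKM in treated wild type, where the groups overlapped, and the difference was 2.89 (SE 0.39, adjusted p = 0.0012). ARO10 differed by 2.24 (adjusted p = 0.00178), ENA1 by 2.02 (adjusted p = 0.00229), ALD4 by 1.86 (adjusted p = 0.00133) and MET14 by 1.62 (adjusted p = 0.00229). MET6 averaged 205 RPKM in untreated and 133 RPKM in treated wild type and moved up in the mutant, a difference of 1.53 (adjusted p = 0.000837).

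By list, 4 of 9 sulfate assimilation and 5 of 18 methionine and cysteine synthesis genes differed, all higher in the mutant, as did 3 of the 12 Crz1 targets (CMK2, ENA1 and RCN1). The 4 sulfate assimilation genes were 3 in 10 of the 12 fits with a library left out, where MET5 lost the call. The 5 methionine and cysteine genes were 3 without treated mutant replicate 1, 2 without treated mutant replicate 2 and 2 without untreated wild-type replicate 1. The 3 Crz1 targets were 5 without treated wild-type replicate 2 and 7 with a block for replicate number. The difference was not called for GSC2 (0.98, 95% interval 0.41 to 1.54, adjusted p = 0.0901), for PMC1 (0.81, 0.30 to 1.32, adjusted p = 0.122, or 0.0434 with a block for replicate number) or for HSP12 (1.44, -0.73 to 3.61, adjusted p = 0.622). None of the 79 ribosome assembly and 6 helicase genes was called as different by limma (6 and 4 of them had an unadjusted p under 0.05), with medians of -0.08 and -0.48.

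Of the Rlm1 targets 12 of 20 rose less or fell more in the mutant, with a median difference of -1.13. KDX1 read 5.542, 5.226 and 4.063 RPKM in untreated and 65.45, 96.53 and 68.4 RPKM in treated wild type, and 2.502 RPKM or less in all mutant libraries, a difference of -3.77 (SE 0.32, adjusted p = 3.24e-05). PIR3 (chrXI:144401-145378, plus strand) averaged 3.55 and 48.4 RPKM in wild type and had a difference of -3.55 (adjusted p = 0.00229). GFA1, for the enzyme that commits fructose-6-phosphate to chitin precursors, read 79.97, 76.87 and 82.36 RPKM in untreated and 60.9, 60.33 and 68.65 RPKM in treated mutant libraries, against 119.4, 136.7 and 140.3 RPKM and 415.7, 463.1 and 370.5 RPKM in wild type (-1.98, adjusted p = 3.24e-05). PST1 rose in wild type from 45.2 to 134 RPKM where it fell in the mutant (-2.79, adjusted p = 0.000553). PIR1 read 514.8, 549.6 and 496.4 RPKM in untreated and 625.7, 436.6 and 682.8 RPKM in treated wild type, with overlap, so that its fall in the mutant gave a difference of -1.64 (adjusted p = 0.000836).

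**Figure D5:**
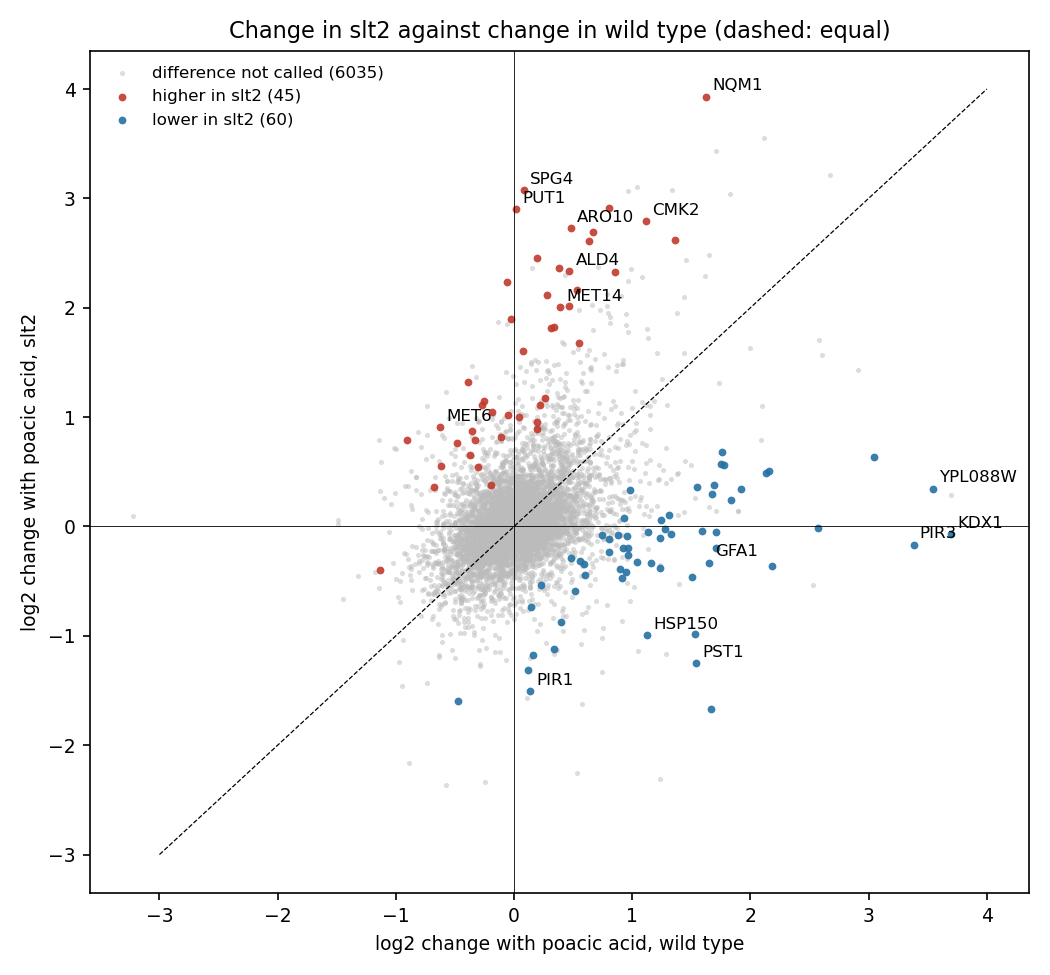
Log2 change with poacic acid in slt2 (vertical axis) against wild type (horizontal axis) for the 6140 tested genes, with the line of equal change dashed. The 45 genes whose change was higher in slt2 (red) include PUT1, near a wild-type change of 0, and MET6, to the left of 0, and the 60 whose change was lower (blue) include KDX1, PIR3 and YPL088W to the right, with mutant changes near 0.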

How the data were processed

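RNA-seq was deposited as a table of RPKM values for 7126 genes in 12 libraries, made by the authors on build R64 per the submitters' processing notes, with decimal commas that were read as points. No source used here gives the aligner, the counter or the use of strand in counting, so genes that overlap another and near-identical copies are uncertain. RPKM are not counts, so limma 3.58.1 (R 4.3.3, trend, robust) was fitted to log2(RPKM + 1), pseudocount 1, with 1 mean per group over all 12 libraries and the 6140 genes of at least 1 RPKM in at least 3 slt2 libraries. Benjamini-Hochberg adjustment ran over those 6140 genes, with a threshold of 0.05. Tables were made with Python 3.11.15, pandas 2.3.3 and numpy 2.4.6. Read depth was recovered from the steps of the values, of which 97.9 to 98.8% were whole reads by gene length and 99.5 to 99.8% by exon length, within 0.01 read or 1% of the value, among values under 50 reads. Intervals are 95% intervals of the fit. The p values rest on the spread between samples within all 4 groups of 3 libraries, wild type included, and not on the 6 mutant libraries alone.

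The members, the 51 gene lists, the tests and the motifs were chosen with earlier results of these data known, so lists are described by counts and medians beside all genes. Named genes were, in the response, the 15 largest rises and falls. These were taken among genes called, changed at least 2-fold, not overlapping between groups and at 5 RPKM or more in the higher group. To them were added the 6 largest differences each way, among genes called different and at 5 RPKM or more in the highest group. In each list the 4 members of smallest adjusted p were also named. Other members named beside a list were picked once their values had been seen. The design text says each biological sample was used without and with the drug. The main fit left this pairing out, so its adjusted p values are those of an unpaired test. With the replicate number as a block, 716 genes and 177 differences were called, against 528 and 105 in the main fit. Deviations of same-numbered slt2 libraries from their group means correlated at 0.035, 0.23 and 0.354, and those of wild type at -0.145, 0.296 and -0.034. Fits were tested on simulated data.

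Motifs were searched in the 500 bp upstream of the start codon in the R64 reference genome on both strands, for the 6055 tested genes with such a window. The result of 1 motif is not reported here.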

Additional observations from a re-analysis of the deposited data

Results flagged for a closer look

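Of the genes chosen by the size of their change or of the difference between strains, 20 were called different between slt2 and wild type. The test was of the difference of the log2 changes. The 6 largest differences each way were drawn from genes already called different, so their calls were set by the choice. These were SPG4, PUT1, NQM1, PDC6, FMP48 and ARO10, and KDX1, PIR3, YNL057W, YPL088W, PST1 and CRG1. The others were chosen by their change in slt2. Higher in slt2 were SPG4 (2.99), PUT1 (2.89), NQM1 (2.31), PDC6 (2.29), FMP48 (2.26), ARO10 (2.24), PHM7 (2.11), ENA1 (2.02), CMK2 (1.68) and PUN1 (1.26). In untreated and treated wild type SPG4 averaged 0.425 and 0.533 RPKM and PDC6 0.866 and 0.790 RPKM. The wild-type side of these 2 differences thus rests on low values, and SPG4 held 1 read in its lowest mutant library. Lower were KDX1 (-3.77), PIR3 (-3.55), YNL057W (-3.33), YPL088W (-3.19), PST1 (-2.79), CRG1 (-2.58), PIR1 (-1.64), PHO3 (-1.43), PCL9 (-1.34) and HO (-1.12). YNL057W overlaps the Rlm1 target YNL058C. FMP48, PUT1, ARO10, ENA1, CMK2, KDX1, PIR3, YNL057W, YPL088W, PST1, PIR1 and PCL9 remained called whichever of the 12 libraries was left out. With a block for replicate number HO was not called (adjusted p = 0.0683). HO lost the call in 10 of these 12 fits, SPG4 in 9, PDC6 in 8, PHM7 in 7, PUN1 in 6, CRG1 in 3, and NQM1 and PHO3 in 2.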

How the results depend on the processing

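No direction of a named call reversed. The 528 genes called ranged from 232 to 676 with 1 mutant library left out and were 1153 with library weights. The 105 differences ranged from 60 to 161 with 1 of the 12 libraries left out, and were 293 with library weights. Distinct list members called, 200 in all, ranged from 104 to 236 and were 345 with library weights. The cause was not tested, beyond fewer libraries in a fit. With the replicate number as a block, by the pairing in the design text, 716 genes, 177 differences and 265 list members were called. Other filters, pseudocounts and scalings, a fit without the trend, and a fit to the mutant alone gave 491 to 587 calls in the response. Of the 135 named genes that were called, 92 were called in every fit with 1 mutant library left out, 128 after quantile normalization and 108 without both libraries numbered 3, a setting chosen after seeing the data that left 365 calls, 104 differences and 149 list members. Depth limits genes near or under 0.866 RPKM, the value of 3 reads in 1 kb of the shallowest mutant library.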
